A study of Rattus norvegicus with 8 samples.

Results

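Sciatic nerve from the side opposite an injury was set against spinal cord in the rat. The comparison took 2 of the 8 arrays of the series, chosen by the headings of the deposited value table. One was the right sciatic nerve, taken on the side opposite a sciatic transection at day 1 and labelled as the control and PBS injection site (the contralateral nerve). The other was spinal cord of the C-level control at day 5, which its label counts from an injection (the C-level cord). Each was total RNA pooled from 3 adult female Sprague-Dawley rats with no transgene named, hybridised once to a 1-colour Agilent array. Both sides come from animals that had been operated on or injected, so neither is naive, and tissue and day cannot be told apart. The other 6 arrays, used only for reference levels, hold the distal and proximal stumps of the transected left sciatic nerve at day 1, a dorsal hemisection of the cord at day 5, and cultured primary Schwann cells given S100A8/A9 at 5 µg/ml for 1 h or 24 h or left unstimulated for 24 h. With 1 array a side there is no replicate, and no difference below has a test: each is the log2 signal of the nerve minus that of the cord.

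Peripheral nerve and cord both carry myelinated axons, but different cells make the myelin. In nerve each Schwann cell, a neural crest derivative, wraps 1 internode inside a basal lamina, and the axons' cell bodies lie elsewhere, in the cord and in ganglia. Around the fibres lie collagen-rich endoneurium, a perineurial sheath of flattened cells joined by tight junctions, and an outer epineurium with fat, vessels and mast cells. In cord the myelin is made by oligodendrocytes among astrocytes and microglia, with no basal lamina around the fibres, and neuron cell bodies and synapses are present. An array of bulk tissue cannot tell fewer cells of a type from less RNA per cell.

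The array names conflicted before any result. The value table's columns were compared with the 8 scans by rank over probes, and 7 columns ranked exactly as a scan recorded under another sample. The contralateral nerve column matched the scan filed under S100A8/A9 for 1 h, and the C-level cord column the scan filed under S100A8/A9 for 24 h. Samples are named here by the table's headings, and background flags come from the matched scans. Defining markers were read in both columns. The column headed contralateral nerve held Pmp2, a lipid-binding protein of peripheral myelin, at 16.70, against 9.80 in the column headed C-level cord. The astrocyte filament gene Gfap stood at 6.76 in the nerve column and 14.12 in the cord column. The erythroid gene Hbb stood at 17.85 and 17.89 in these columns, and at 2.11, 2.41 and 2.16 in those headed Schwann cells. If the scans were taken under the samples they are filed with instead, 75 of 194 named genes would keep their sign, Pmp2 among them at 2.42. On the nerve array 72.0% of probes were well above background, and on the cord array 73.6%. No measured gene was saturated on either array.

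Of 12765 named genes in the value table, 12214 were well above background on at least 1 of the 2 arrays and are called measured, and 551 were dim on both. A side that was not well above background was set to the array's lowest signal among probes that were, or to its own if higher, so that 477 genes have an "at least" and 762 an "at most" difference. Of the measured genes, 2415 (19.8%) were at least 2-fold higher in the nerve and 2239 (18.3%) at least 2-fold lower, with 7560 (61.9%) between. The median difference over all measured genes was 0.09, with quartiles at -0.66 and 0.77. At 4-fold the counts were 1038 (8.50%) and 1179 (9.65%). At 16-fold the lists were unequal, with 247 genes higher and 474 lower in the nerve. Replicate spots of a probe gave a median technical error of 0.12 on the log2 difference, which leaves out all variation between animals. All 3 nerve columns lay above both cord columns for 3880 genes (31.8%) and below both for 3114 (25.5%). Of the genes at least 2-fold higher in the nerve, 1897 (78.6%) had that order, and of those at least 2-fold lower, 1924 (85.9%) had the opposite order. The injured stumps and the other cord piece are different conditions, so these orders are no replication.

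**Figure D1:**
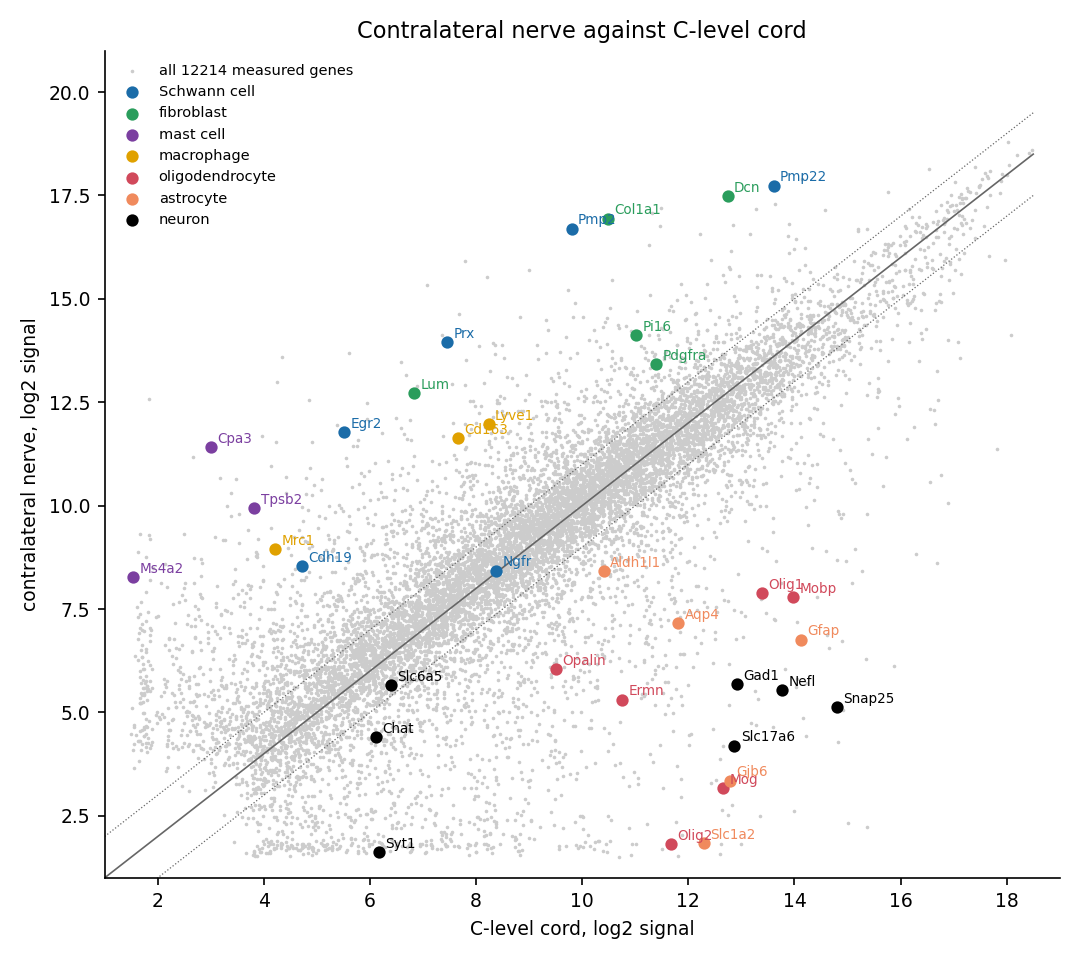
Log2 signal of the 12214 measured genes in the contralateral nerve (vertical) against the C-level cord (horizontal), 1 array each. The solid line marks equal signal and the dotted lines 2-fold. Coloured points are defining markers of 7 cell types: Pmp2 at 16.70 in the nerve and 9.80 in the cord lies far above the line, and Snap25 at 5.12 and 14.80 far below it.

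Among genes well above background on both arrays, Cma1, the mast cell chymase, had the largest difference in favour of the nerve: it stood at 13.59 in the nerve and 4.34 in the cord, a difference of 9.25 or 610-fold. Ccl11, an eosinophil-attracting chemokine, followed with a difference of 8.76, from a cord level of 4.24. Cnmd, chondromodulin of cartilage and tendon, stood at 15.33 and 7.08, 8.25 apart. Per1, a repressor of the circadian clock, was 15.92 in the nerve and 7.79 in the cord, 8.12 apart. The other Per1 values were 12.99 and 13.82 in the distal and proximal stumps and 10.75 in the dorsal hemisection, so the order of nerve above cord held in all 5 tissue columns while the size varied. Below these came Cldn1 (8.08), Krt19 (7.72), Rnase1 (7.71), Dnase1l3 (7.33), Sostdc1 (7.32), Pla2g2a (6.96), Sfrp4 (6.90), Pmp2 (6.90), Cldn22 (6.82) and Mrap (6.76). Among genes not well above background in the cord, the claudin Cldn24 was at least 9.68 higher in the nerve (12.58 against a dim 1.83). The mast cell genes Cpa3 and Tpsab1 followed, at least 8.42 and 8.27 higher, then Gas2l3 (7.49), Osr2 (7.16), Rnase1l2 (6.93), Ly49si1 (6.69) and Gsc (6.41). Ly49si1, a killer cell lectin-like receptor, stood at 10.00 in the nerve and was dim in the C-level cord at 3.30, but it had 10.10 in the dorsal hemisection, so its contrast holds against 1 cord column.

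In favour of the cord, the largest difference among genes well above background on both arrays was that of Slc12a5, the chloride exporter of mature neurons. It had 4.28 in the nerve and 14.82 in the cord, a difference of -10.54 or 1490-fold. The granins Chgb (5.06 and 14.92) and Scg2 (4.44 and 14.21), proteins of dense core vesicles, differed by -9.86 and -9.77. Bcan, the brain proteoglycan brevican, differed by -9.76, and Snap25, a fusion protein of synaptic vesicles, by -9.68. The peptide gene Sst was 4.86 in the nerve and 14.16 in the cord. Then came Wscd1 (-9.06), Rbfox1 (-8.95), Tac1 (-8.78), Slc17a6 (-8.67), Scn4b (-8.59), Slc7a14 (-8.54), Nrxn3 (-8.48), Nefh (-8.45) and Chga (-8.41). Bounds of genes dim in the nerve went further. Fabp7, the lipid-binding protein of astrocytes and radial glia, had 15.37 in the cord and was lower in the nerve by at least 12.38 (a bound of -12.38, 5316-fold). Klk6, a protease of oligodendrocytes, stood at 15.01 in the cord, with a bound of -12.01. Vgf, Ina and Calb2 followed with bounds of -11.00, -10.36 and -9.99, then Atp2b2 (-9.76) and Iqsec3 (-9.65). Vgf was dim in the contralateral nerve at 2.61 but had 7.38 and 7.75 in the distal and proximal stumps.

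Schwann cell and peripheral myelin genes were the first of the lists compared, and 21 of 25 measured members were at least 2-fold higher in the nerve, none lower, with a median of 3.20 beside 0.09 over all genes. Pmp2 had 16.70 in the nerve and 9.80 in the cord, a difference of 6.90. Prx, periaxin of the Schwann cell's outer membrane, stood at 13.95 and 7.45. Egr2, the transcription factor that drives peripheral myelination, was 11.77 in the nerve and 5.51 in the cord, 6.26 apart. Sostdc1, a secreted BMP and Wnt antagonist, stood at 15.52 and 8.21, and Dhh, the hedgehog ligand of Schwann cells, at 11.94 and 5.38. Pmp22 was 17.74 and 13.61, a smaller 4.13. The cord level of these genes was not uniform: in the dorsal hemisection Pmp2 had 13.21 and Prx 10.18, both higher than in the C-level cord. Against the dorsal hemisection the list's median was 2.45. The members within 2-fold were Ngfr (8.43 and 8.38), Pou3f1 (-0.13), the connexin Gjb1 (-0.43) and S100b (-0.65).

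Oligodendrocyte genes stood the other way, with 20 of 23 measured members at least 2-fold lower in the nerve, none higher, and a median of -4.51. Mog, a glycoprotein on the surface of central myelin, was dim in the nerve at 3.18 and 12.66 in the cord, a bound of -9.49. The lineage factor Olig2 was dim at 1.81 in the nerve and 11.68 in the cord. Mobp, a basic protein of central myelin, had 7.78 and 13.98, a difference of -6.20. Opalin stood at 6.04 and 9.50, Ermn at 5.31 and 10.75, and Olig1 at 7.89 and 13.39. The probe mattered for some: with the mean of a gene's probes Opalin differed by -6.99 in place of -3.46, and Olig2 by -5.26 in place of a bound of -8.69. Aspa (0.92), Gpr17 (-0.32) and Lpar1 (-0.32) were within 2-fold.

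Between these lists lay myelin genes that both glia use, of which 3 of 20 were at least 2-fold higher in the nerve and 7 lower, with a median of -0.22. Mbp, the basic protein of all myelin, had the same signal on both arrays, a difference of 0.00. Mal, a proteolipid of myelin vesicles, was 13.57 in the nerve and 10.74 in the cord. Mag, an adhesion protein next to the axon, was 12.22 and 15.90, a difference of -3.68. The glial factor Sox10, which both lineages express, was 12.17 and 12.61. Enzymes of myelin lipids were close to equal: Ugt8 differed by 0.85, Fa2h by 0.59 and Gal3st1 by 0.35. The cholesterol synthesis list had 5 of 25 members at least 2-fold higher in the nerve and none lower, median 0.68. The share higher is close to the 19.8% over all genes, while 18.3% of all genes were lower. Idi1, an isomerase of the pathway, was 14.16 in the nerve and 12.19 in the cord. Against the dorsal hemisection 13 of the 25 were higher and none lower, median 1.18, beside 16.7% and 16.6% of all genes.

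**Figure D2:**
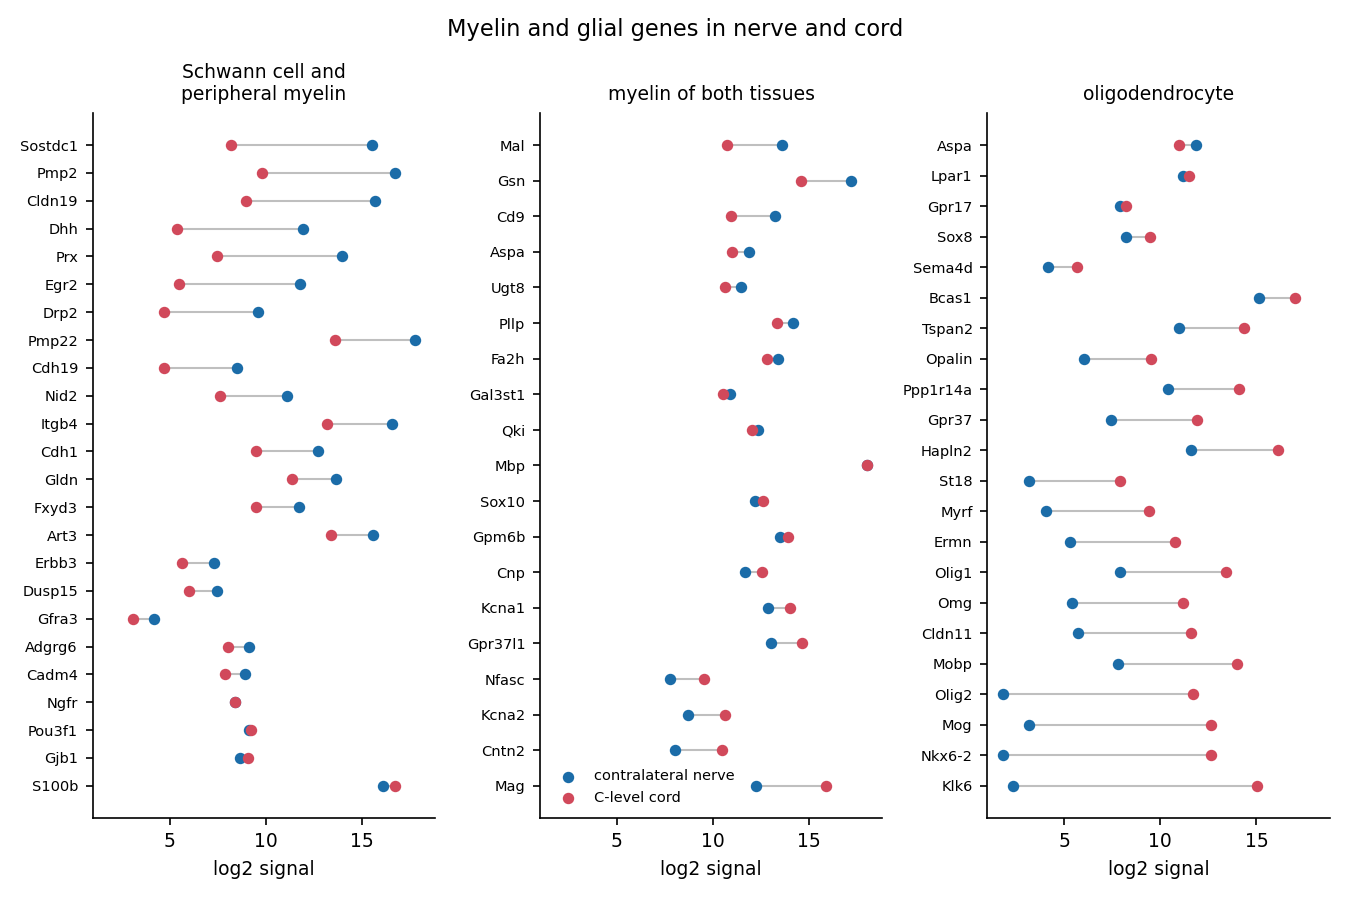
Log2 signal of measured members of 3 glial lists in the contralateral nerve (blue) and C-level cord (red), 1 array each; members run down the page from the highest to the lowest difference. Blue lies right of red for most peripheral genes, left for most oligodendrocyte genes, and the points of Mbp coincide.

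Sequence around the annotated start was read for members of the lists that stand apart. RefSeq promoter windows (GRCr8) matched 9964 measured genes. Each window spans 300 bases, 250 before the start and 50 after it, and only the 250 before it are printed. In all 10 short motifs were searched on both strands, 8 in a first search and 2 more after its shares and some windows had been read. Over all 27457 windows the first 8 were held as follows: the TATA box TATAAA in 14.3%, the GC box GGGCGG in 34.9%, the GATA form AGATAA in 11.3%, the letters ACAATG in 3578 windows, the E box CAGCTG in 15.1%, the letters GGACAGC in 6.64%, the AP-1 form TGACTCA in 4.53% and the E box CACGTG in 6.65%. The 2 added later were ACAAAG, in 18.3%, and the cAMP response element TGACGTCA, in 1.91%. The windows and the 3 motifs marked in them were picked after their matches were seen, so they illustrate and test nothing. The window of Mobp is shown because it holds 8 matches of ACAAAG, which reads in reverse complement on the strand printed. It is a number that 2 of 27457 windows reach. Capitals mark the matches in the 250 bases before the start, chr8:128746982-128747231, plus strand.
Mobp: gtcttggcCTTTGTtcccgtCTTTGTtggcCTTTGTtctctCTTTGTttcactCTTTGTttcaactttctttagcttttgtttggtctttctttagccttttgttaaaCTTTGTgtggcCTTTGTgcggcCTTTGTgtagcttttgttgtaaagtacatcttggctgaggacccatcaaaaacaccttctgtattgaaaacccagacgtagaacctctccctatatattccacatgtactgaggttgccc
Of the 13 measured oligodendrocyte genes with a window, 4 held ACAAAG, beside 14.0% of the windows of measured genes. The other windows of the 13 lack it, so the run in Mobp is not a feature of the list. ACAATG lay in 5 of the 13, beside 7.86% of the windows of measured genes. Neither share was tested. None of the 13 held TGACGTCA, GGACAGC or CACGTG.

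Astrocyte genes were lower in the nerve in 25 of 28 measured members, and none was at least 2-fold higher, with a median of -3.94. Gfap stood at 6.76 and 14.12, a difference of -7.36. Aqp4, the water channel of astrocyte endfeet, was 7.16 and 11.81, a difference of -4.66 that was -9.38 with the mean of its probes. Slc1a2, the main glutamate transporter, was dim in the nerve at 1.84 and 12.30 in the cord, and the connexin Gjb6 was dim at 3.35 and 12.78. Aldh1l1 was closer, 8.41 against 10.41. The central matrix list had 14 of 19 members lower and 2 higher, median -3.02. Its exceptions were Tnc, tenascin C, 3.46 higher in the nerve, and Sparc, at 18.14 and 16.54. Tnc had 9.32 in the dorsal hemisection, beside 9.20 in the contralateral nerve. Sparc had 16.99 in the dorsal hemisection, beside 16.76 and 16.86 in the distal and proximal stumps. The ependymal and cilia list had 14 of 20 lower and 3 higher (Mia, Rarres2 and Cfap52), median -2.72. Its defining factor Foxj1 was dim in the nerve at 4.04 and 9.56 in the cord. Over the 11 above background on both arrays 5 were lower and 3 higher, median -0.21, and with normexp the list's median was -0.70.

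General neuronal genes were at least 2-fold lower in the nerve in 28 of 28 measured members, with a median of -5.07. Axons run through the nerve, and the neurofilament genes show the contrast: Nefl was 5.53 and 13.77, Nefm 8.83 and 16.29, Nefh 4.74 and 13.19. Snap25 was 5.12 and 14.80. Stmn2 (11.74 and 14.49) and Uchl1 (14.01 and 16.90) were among the closest, at -2.75 and -2.89. The synaptic vesicle list was lower in 23 of 28 members and higher in none, median -3.30, led by Nrxn3 (-8.48), Syt4 (a bound of -8.09) and Cplx1 (-8.07). For inhibitory transmission 18 of 25 genes were lower and none higher. Gad1, which makes GABA, was 5.68 and 12.92, and the vesicular transporter Slc32a1 was 8.66 and 14.97. For glutamate 19 of 26 were lower and none higher, led by the vesicular transporter Slc17a6 at 4.20 and 12.87. Potassium and sodium channel genes were lower in 23 of 36 and higher in 3, which were Kcna5 (7.49 and 4.20), Scn9a (7.78 and 6.05) and Kcnk1 (13.66 and 12.22).

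Motor neuron genes were mixed. Of 16 measured members of the cholinergic and motor neuron list, 10 were lower and 4 higher in the nerve. Chat, which makes acetylcholine, was 4.40 and 6.11, and the choline transporter Slc5a7 was dim in the nerve and 10.39 in the cord. The 4 higher were Spp1 (15.56 and 12.95), Gfra1, Foxp1 and Isl1, all of which other cells also express. With the dorsal hemisection as the cord side 1 of the 16 was higher and 9 lower, median -1.14. Spp1 had 15.54 in that piece. Neuropeptide and granin genes were lower in 28 of 36 and higher in 4, median -3.72. Calca, which encodes CGRP, was 7.47 and 12.87, and Penk was 5.66 and 12.00. Pthlh was the highest of the exceptions, 2.87 higher in the nerve, followed by Npy1r (9.42 and 7.24), Npb and Nmb.

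The cAMP response element TGACGTCA, a palindrome that is the same on both strands, lay in 4 of 28 windows of the neuropeptide list, beside 1.91% of all 27457 windows and 2.91% of those of measured genes. The 4 were Sst, Cartpt, Vgf and Ucn. The window of Vgf is shown as one of them. Those of the granins Scg2, which holds the element, and Chgb, which differed about as much and does not hold it, are shown beside it, though both genes belong to the general neuron list and not to these 28. Capitals mark the match in the 250 bases before each start: Scg2 at chr9:88256867-88257116 on the minus strand, Vgf at chr12:25277021-25277270 on the minus strand and Chgb at chr3:140496462-140496711 on the plus strand.
Scg2: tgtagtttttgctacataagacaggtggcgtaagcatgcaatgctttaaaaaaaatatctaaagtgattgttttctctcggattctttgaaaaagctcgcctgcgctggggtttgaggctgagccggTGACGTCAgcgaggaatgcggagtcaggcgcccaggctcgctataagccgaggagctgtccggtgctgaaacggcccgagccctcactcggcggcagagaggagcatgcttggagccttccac
Vgf: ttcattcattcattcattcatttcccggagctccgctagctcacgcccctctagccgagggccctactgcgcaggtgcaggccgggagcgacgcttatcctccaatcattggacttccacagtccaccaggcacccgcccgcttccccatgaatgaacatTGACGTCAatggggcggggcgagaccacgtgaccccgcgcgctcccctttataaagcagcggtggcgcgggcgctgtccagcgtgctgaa
Chgb: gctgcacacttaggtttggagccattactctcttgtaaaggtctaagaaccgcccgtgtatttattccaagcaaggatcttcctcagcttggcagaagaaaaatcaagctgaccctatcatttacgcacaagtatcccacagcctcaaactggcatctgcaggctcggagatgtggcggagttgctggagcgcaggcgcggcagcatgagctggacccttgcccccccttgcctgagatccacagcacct
Tac1, also among the 15 lowest genes, has no match either. Windows of genes at least 16-fold lower in the nerve held TGACGTCA in 5.21% of 365, and those of genes at least 16-fold higher in 0.538% of 186. Their base composition also differed, with a median of 16 CpG dinucleotides in the first and 6 in the second. At the 2-fold threshold, lower genes had no excess of TGACGTCA over genes within 2-fold, whose windows held it in 3.20%. Windows of genes at least 2-fold higher in the nerve held it in 1.79%.

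Fibroblast and connective tissue genes were at least 2-fold higher in the nerve in 27 of 33 measured members and lower in 2, with a median of 2.99. The small proteoglycan genes Dcn and Lum stood at 17.49 and 12.73 in the nerve and 12.74 and 6.83 in the cord. Postn, a matricellular protein, was 6.28 higher in the nerve. Sfrp4 and Sfrp2, Wnt antagonists, differed by 6.90 and 6.63. Pi16, a marker of adventitial fibroblasts, was 14.13 and 11.02, and Pdgfra 13.42 and 11.40. The 2 lower were the tendon factor Scx (9.56 and 10.95) and the lubricin gene Prg4 (7.86 and 9.59). Connective tissue in the cord column also varied between pieces, since Col1a1 was 10.48 in the C-level cord and 14.67 in the dorsal hemisection.

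Among collagen chains 13 of 17 measured genes were higher in the nerve and 2 lower, median 3.18. The fibrillar chains Col1a1 (16.94 and 10.48), Col3a1 (17.20 and 11.49) and Col1a2 (17.30 and 13.64) differed by 6.46, 5.70 and 3.66. The list's median against the dorsal hemisection was 1.54. Col14a1, which sits on fibrils, differed by 5.73, and the basement membrane chain Col4a1 by 3.88. Col5a1, Col8a1, Col5a3, Col6a2, Col4a4, Col2a1, Col18a1 and Col9a2 were also at least 2-fold higher, between 1.36 and 4.08. Col9a1 and Col23a1 were within 2-fold. Lower were Col11a2, 7.59 in the nerve and 10.86 in the cord, and Col7a1, dim in the nerve with a bound of -2.01. The laminin and basal lamina list was higher in 15 of 18 and lower in 1, median 2.17. Lamc1 and Lamb2, subunits of the Schwann cell's laminins, were 14.06 and 12.78 in the nerve and 11.01 and 9.98 in the cord. Their receptor chain Itgb4 was 16.58 and 13.17, and Drp2, which binds the periaxin complex, 9.62 and 4.73. Lamb3 and Lama5 were also higher, and Lama1 was dim in the nerve and lower there.

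Perineurial genes included some of the largest single differences but not a uniform list, since 8 of 19 were at least 2-fold higher, 2 lower, and the median was 0.49. Cldn1, the claudin of perineurial tight junctions, was 13.68 in the nerve, 8.08 above the cord, and it stood at 10.94 and 11.60 in the stumps. The keratin Krt19 was 11.68 and 3.96. Gli1 (10.21 and 6.25) and Ptch1 (9.71 and 7.14), readouts of hedgehog signalling, were also higher. The glucose transporter Slc2a1, which both barriers use, differed by 0.77. Tight and gap junction genes went both ways. Of 24 measured, 7 were higher and 8 lower, beside 19.8% and 18.3% of all genes, and the median was 0.02. Cldn1, Cldn19 (15.69 and 9.00) and the vascular connexin Gja5 (8.71 and 5.12) were higher, while Gjb6 and Cldn11 (5.74 and 11.61) were lower. For the blood-brain barrier list 5 of 20 were higher and 7 lower, beside 19.8% and 18.3% of all genes. Slco1c1, a thyroxine transporter of brain capillaries, was dim in the nerve and 11.86 in the cord. Cldn5, of endothelium in both tissues, was 11.93 and 11.96. General vascular genes were higher in 13 of 23 and lower in 2, median 1.19, with Pecam1 at 12.52 and 10.43 and Emcn at 10.00 and 6.76. Of these, 6 were higher and 1 lower against the dorsal hemisection, median 0.57.

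Mast cell genes had the highest median of the 42 lists, 4.79, with 15 of 16 measured members at least 2-fold higher in the nerve and none lower. That rank was lost in settings that treat dim signal otherwise: with normexp the median was 2.12, below collagen (3.06) and fibroblast genes (3.03), and over the 8 members above background on both arrays it was 2.66, below Schwann cell genes (3.30). Mast cells lie along vessels in nerve connective tissue and store proteases and histamine. Tpsb2, a tryptase, was 9.95 in the nerve and 3.82 in the cord. Ms4a2 and Fcer1a, chains of the high-affinity IgE receptor, were dim in the cord and at least 5.38 and 6.39 higher in the nerve. Hdc, which makes histamine, was 9.92 and 5.77. Kit, Gata2 and Slc18a2, shared with other cells, differed by only 1.16, 1.12 and 1.03. In the stumps Cma1 was 13.38 and 12.77 and Cpa3 11.30 and 10.54, close to the contralateral nerve.

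The letters AGATAA, the form of motif that GATA factors bind, lay in 4 of 14 mast cell windows and in 11.3% of all windows. Among measured genes alone the motif lay in 3 of 12 mast cell windows and in 7.17% of windows. Cma1 and Cpa3 are shown because they hold it and led the list, and Tpsab1 because it led the list without it. Capitals mark the match in the 250 bases before each start, all on the minus strand: Cma1 at chr15:33390134-33390383, Cpa3 at chr2:104673238-104673487 and Tpsab1 at chr10:14867303-14867552.
Cma1: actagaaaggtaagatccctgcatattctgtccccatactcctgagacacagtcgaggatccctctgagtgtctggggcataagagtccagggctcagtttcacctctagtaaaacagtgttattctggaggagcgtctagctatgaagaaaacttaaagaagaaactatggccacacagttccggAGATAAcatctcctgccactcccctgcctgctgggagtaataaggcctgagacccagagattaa
Cpa3: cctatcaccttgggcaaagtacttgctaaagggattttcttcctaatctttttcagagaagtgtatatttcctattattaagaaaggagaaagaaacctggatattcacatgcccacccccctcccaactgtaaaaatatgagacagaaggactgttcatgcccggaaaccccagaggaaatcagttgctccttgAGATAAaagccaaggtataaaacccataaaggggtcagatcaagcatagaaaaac
Tpsab1: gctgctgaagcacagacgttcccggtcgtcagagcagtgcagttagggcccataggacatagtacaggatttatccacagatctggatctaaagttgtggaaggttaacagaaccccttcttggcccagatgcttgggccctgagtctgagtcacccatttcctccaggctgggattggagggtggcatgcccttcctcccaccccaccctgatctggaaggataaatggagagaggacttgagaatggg
TATAAA lay in 36 of 186 windows of genes at least 16-fold higher in the nerve, in 40 of 365 of those at least 16-fold lower, and in 8.75% of the windows of measured genes.

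Macrophage genes of tissue-resident cells were higher in 16 of 21 and lower in 1, median 2.65. Mrc1, the mannose receptor, was 8.95 in the nerve and 4.21 in the cord. Cd163, the haemoglobin scavenger receptor, was 11.63 and 7.66, and Lyve1 11.98 and 8.24. The monocyte chemokine Ccl7 was 10.26 and 4.90, but it had 9.89 in the dorsal hemisection. Fcgr3a was lower in the nerve, at 5.98 and 10.04. Against the dorsal hemisection, where Mrc1 and Cd163 were higher than in the C-level cord, the median was 0.37. Microglial genes were closer to equal against the C-level cord, with 3 of 25 higher, 8 lower and a median of -0.48. Cx3cr1 was 11.60 and 12.34, P2ry12 10.46 and 11.84, and Tmem119 7.03 and 8.58, while Sall1, a factor of microglia and other cells, was dim in the nerve and 8.30 in the cord. C1qa, Tyrobp and Aif1, which macrophages also express, differed by -0.02, -0.08 and -0.09. Against the dorsal hemisection 2 of 25 microglial genes were higher and 18 lower, median -1.68. With the means of 3 nerve and 2 cord columns 2 were higher and 12 lower, median -0.93.

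Other immune lists had smaller medians. Neutrophil genes were higher in 7 of 12 and lower in 4. S100a8 and S100a9, the calcium-binding pair of granulocytes that the series is about, were 5.73 and 7.13 in the contralateral nerve and 8.91 and 9.46 in the C-level cord. Retnlg, a granulocyte gene, was 10.64 and 6.42. T and NK cell genes were higher in 7 of 16 and lower in 1, led by Cd3g (8.34 and 4.54). MHC class II genes were higher in 9 of 15 and lower in 1, median 1.52, with Cd74, the invariant chain, at 15.38 and 13.95. Complement genes were higher in 14 of 24 and lower in 1, median 1.34. The exception was C3, at 9.70 and 13.60, while C1s (14.43 and 10.43) and C1r (13.83 and 10.34), the proteases that start the classical pathway, were higher. Interferon response genes were higher in 11 of 28 and lower in 2, median 0.60. The other cord column gave other values for these lists: against the dorsal hemisection, complement genes had 9 higher and 5 lower, median 0.30, and interferon response genes 2 higher and 4 lower, median 0.00. The medians there were 0.64 for MHC class II, -0.07 for T and NK cell and -0.66 for neutrophil genes.

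Adipocyte genes were higher in the nerve in 18 of 28 members and lower in 4, with a median of 1.54. Adipoq, the hormone adiponectin, was 14.48 and 9.31, Cfd, adipsin, 17.08 and 11.32, and Fabp4, a fatty acid carrier, 14.32 and 10.40. The cord column held fat genes of its own. Ucp1, the uncoupler of brown fat, was dim in the nerve at 3.36 and 12.52 in the C-level cord, against 6.28 in the dorsal hemisection. Cidea was 11.37 and 12.64, and Adipoq was 2.66 in the dorsal hemisection. Of 9 measured genes in a brown fat list written after these values were seen, 6 were at least 2-fold lower in the nerve and none higher, and Cox8b stood at 6.36 and 11.32. Skeletal muscle genes were lower in 16 of 25 and higher in 2, median -1.84, with Ckm at 7.30 and 9.27 and Atp2a1 at 7.82 and 11.21. In the proximal stump Ckm was 12.23 and Myh4 11.24, so muscle genes varied between nerve pieces as well, and with the means of 3 nerve and 2 cord columns the list's median was 0.92. The part that fat and muscle in the pieces play in the other differences was not tested.

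**Figure D3:**
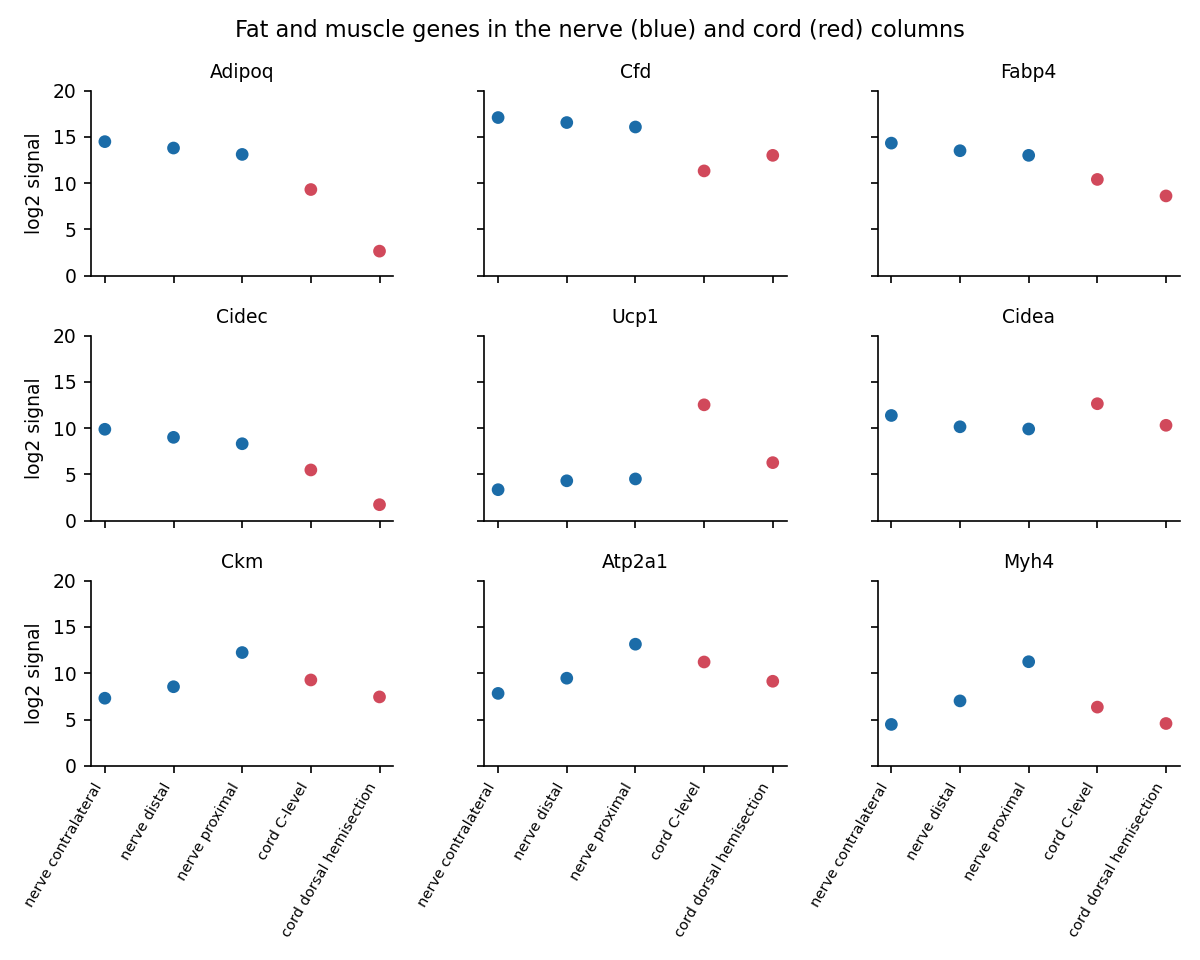
Log2 signal of 6 fat genes and 3 muscle genes in the 3 nerve columns (blue, contralateral first) and the 2 cord columns (red, C-level first), 1 array a point. Ucp1 is at 12.52 in the C-level cord and 6.28 in the dorsal hemisection, and Ckm is highest in the proximal stump.

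Transcription factors were taken by the tissue they pattern. Factors of limb and connective tissue mesenchyme were higher in 12 of 18 and lower in 1, median 3.22: Meox2 was 12.49 and 5.94, Tbx18 9.89 and 4.83, and Osr2, Emx2 and Meox1 were dim in the cord. Factors of the central nervous system were lower in 14 of 18 and higher in none, median -3.60, with Sox2 at 10.53 and 12.99 and Pax6, Nkx6-1 and Lbx1 dim in the nerve. Over the 9 above background on both arrays 5 were lower and none higher, median -2.46. With normexp 12 of 18 were lower and none higher, median -1.19. Neural crest factors were higher in 10 of 18 and lower in 1, where Tfap2b was dim in the nerve and 7.36 in the cord; against the dorsal hemisection 3 were higher and 2 lower. Hox genes, which mark position along the body and limb axes, were measured for 15 members, of which 3 were higher and 8 lower. With normexp none was higher and 4 were lower, median -0.26. Hoxa11 and Hoxd10 were dim in the C-level cord, at least 2.68 and 1.37 higher in the nerve. Hoxd10 had 4.13 in the dorsal hemisection, beside 4.27 in the contralateral nerve. Hoxb7 (9.63 and 13.06), Hoxa7 (10.47 and 13.21), Hoxb8 (4.42 and 7.27) and Hoxb4 (6.05 and 8.21) were lower in the nerve, as were Hoxd1, Hoxd12, Hoxa2 and Hoxa6. Hoxd9, Hoxc5, Hoxc4 and Hoxd4 were within 2-fold.

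As a list, trophic signals stood close to all genes: 9 of 28 were higher and 5 lower, beside 19.8% and 18.3% of all genes, and the median was 0.12, beside 0.09. Cntf, a survival factor that Schwann cells make, was 14.77 and 10.53, and the neurotrophin Ntf3 was dim in the cord and 6.81 in the nerve. Fgf7 was at least 6.17 higher. Erbb2 (10.60 and 7.16) and Erbb3 (7.33 and 5.63), the neuregulin receptors of Schwann cells, were higher, while Nrg1, their axonal ligand, was dim in the nerve and 6.98 in the cord. Retinoid genes were higher in 9 of 20 and lower in 1. Immediate early genes were higher in the nerve in 16 of 24 and lower in none, median 1.70, with Atf3, an injury-induced factor, at 11.86 and 7.91, Nr4a1 at 13.12 and 9.56, and Fos at 8.45 and 6.93. With the dorsal hemisection as the cord side 11 were higher and 2 lower, median 0.63. Clock genes other than Per1 did not share its size: in a list written after Per1 was seen, 3 of 15 were higher and 2 lower, close to the shares over all genes, with Nr1d1 at 9.10 and 6.93 and Per3 at 8.07 and 9.72. A glucocorticoid list, also written afterwards, had 3 of 10 higher and 3 lower.

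Genes that every cell uses were closer. Ribosomal protein genes had 1 of 34 at least 2-fold higher, none lower and a median of 0.26. Genes of oxidative phosphorylation had all 38 members below 0, 12 of them at least 2-fold lower, and a median of -0.80, with Cox5a at 13.98 and 15.61. The 2-fold calls of this list did not hold elsewhere: with the 75th percentile 4 of 38 were lower, and against the dorsal hemisection (median -0.22) or with tissue means (median -0.46) none was. Erythroid genes, which are not used by every cell, had 3 of 10 lower and none higher, beside 18.3% and 19.8% of all genes. Their median was -0.17, and Hbb was 17.85 and 17.89. Cell cycle genes depended on the columns compared. Against the C-level cord 2 of 23 were higher and 7 lower, median -0.14. Against the dorsal hemisection none was higher and 17 were lower, median -2.75, and with tissue means 7 were higher and 1 lower, median 0.46.

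**Figure D4:**
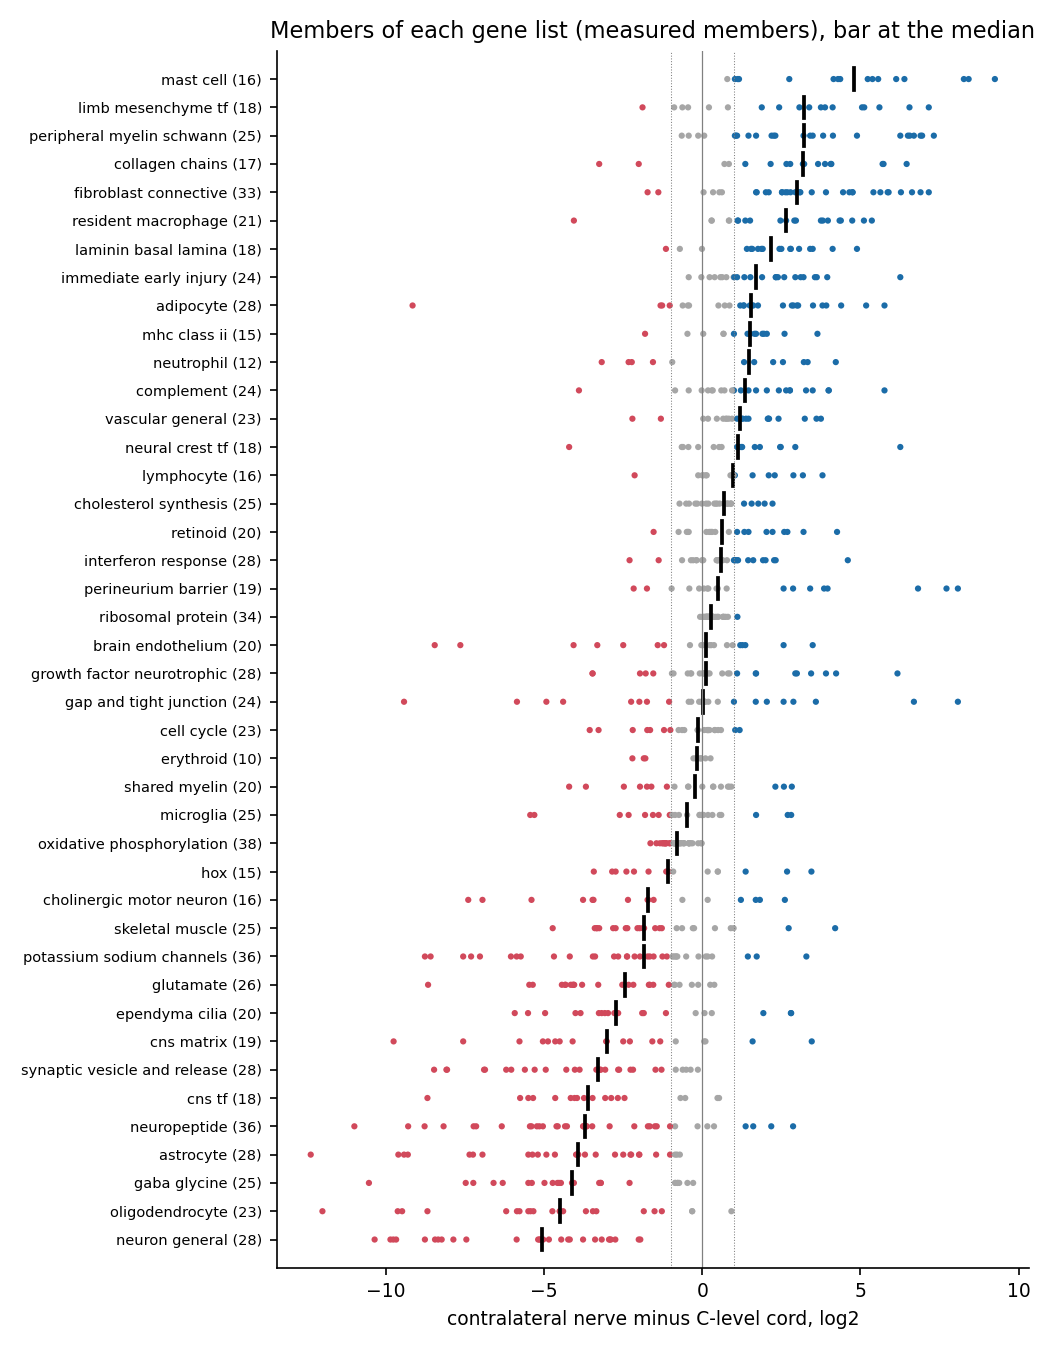
Contralateral nerve minus C-level cord (log2) for each measured member of the 42 lists, with the number measured in brackets and a bar at the list's median; blue is at least 2-fold higher and red at least 2-fold lower in the nerve, and bounds are drawn at their bound. With these values the mast cell list has the highest median, 4.79, and the general neuron list the lowest, -5.07.

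The calls were set beside those against the other cord piece. Against the dorsal hemisection, 2064 genes (16.7%) were at least 2-fold higher in the contralateral nerve and 2051 (16.6%) lower. Of the higher genes 1611 were shared, which is 66.7% of the C-level list and 78.1% of the dorsal list, and of the lower 1527, 68.2% and 74.5%. Both comparisons use the same nerve array. The cord columns themselves differed by at least 2-fold for 1229 genes higher in the dorsal hemisection (10.1%) and 1127 lower (9.24%). Across probes the nerve column's Spearman correlation was 0.869 with the C-level cord and 0.900 with the dorsal hemisection, and the cord columns' was 0.969 with each other, all within 1 set of arrays.

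**Figure D5:**
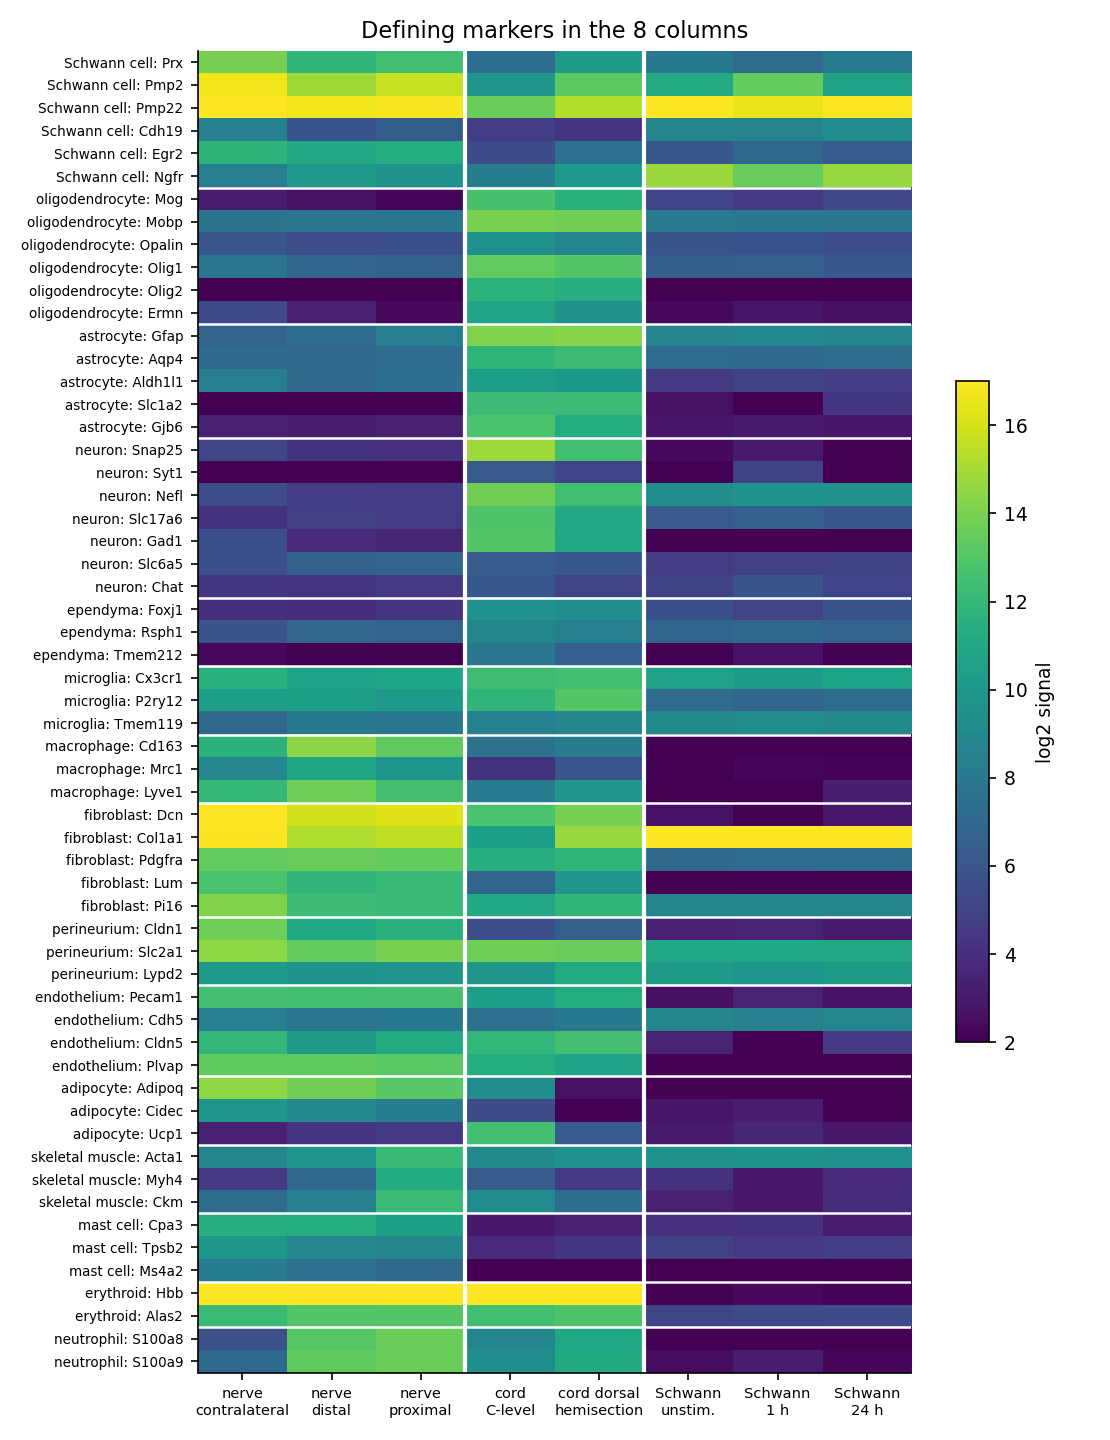
Log2 signal of defining markers (rows) in the 8 columns: 3 nerve, 2 cord and 3 Schwann cell columns, 1 array each. Oligodendrocyte, astrocyte and most neuron markers are brighter in the 2 cord columns than in the 3 nerve columns; mast cell markers are bright in the 3 nerve columns.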

How the data were processed

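Total RNA of 8 samples was hybridised to 1-colour Agilent arrays and read, per the file headers, by Agilent's extraction software in version 10.7.3.1 (10.5 in the submitters' processing notes). The deposited value table holds log2 signals with equal column medians (8.03); no label or header says how the authors normalized them. The deposited scans hold spot intensity and background flags. Accessions of 15213 of 24894 table probes matched RefSeq symbols (GRCr8, names only). The probe with the highest mean over the 8 columns stood for its gene. Differences were taken as described, with a 2-fold threshold. Spot error was pooled in 10 brightness bins. The deposited scans have no mean signal, so the normexp alternative (limma 3.58.1, offset 50) used the median signal. The members of 42 lists, and the rule for named genes (the 15 highest and lowest, 8 bounds each way, 4 per list and all defining markers, Hox, collagen and laminin genes), were chosen with earlier results of these data known. Some genes that the rule names are not reported here, though they stay in all counts and medians. Other genes were named after their values were seen. The calculation was tested on simulated data. Python 3.11.15, numpy 2.4.6 and pandas 2.3.3 were used.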

Additional observations from a re-analysis of the deposited data

Results flagged for a closer look

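Outside the deposited value table, 134 named genes were well above background on the scan matched to the contralateral nerve and not on the scan matched to the C-level cord, of 2394 named genes that the table leaves out. In the other direction there were 78, and 6 were well above background on both. These genes enter no comparison above.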

How the results depend on the processing

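No paired analysis was possible because each side has 1 array, and for the same reason no replicate could be left out; no difference has an error over animals. At a 4-fold in place of a 2-fold threshold, 1038 genes were higher and 1179 lower. With normexp on the matched scans 1474 were higher and 1578 lower. With the 75th percentile the counts were 2021 and 2344, with the mean of probes 2431 and 2258, with no filter 2509 and 2299, with both arrays above background 2001 and 1626, with the mean of 3 nerve and 2 cord columns 2142 and 1965.

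Of the 205 named genes at least 2-fold apart, the sign was kept by all 205 with the 75th percentile, normexp, the mean of probes and no filter, and by all 137 measured on both arrays. The exceptions were Fcnb and Ly49si1 against the dorsal hemisection and, with tissue means, Ckm (1.00), Myh4 (2.12), S100a8 (0.87) and S100a9 (1.06), whose means include the injured stumps. Among lists with a median at least 1 from 0, the sign turned for neutrophil genes (-0.95 with both arrays above background, -0.66 against the dorsal hemisection) and for skeletal muscle (0.92 with tissue means). Smaller medians crossed 0 for shared myelin (0.17), lymphocyte (-0.07) and brain endothelium genes (-0.15) against the dorsal hemisection, for perineurium (-0.08), brain endothelium (-0.63), junctions (-0.69) and cell cycle (0.46) with tissue means, for junctions (-0.12) and trophic genes (-0.05) with the 75th percentile, for junctions (-0.02) with normexp and for cell cycle (0.06) with the mean of probes. The general neuron median, lowest at -5.07, was -4.98 with the mean of probes and -4.81 with tissue means, above oligodendrocyte genes at -5.26 and -5.30. Single-gene values were recomputed for the defining markers reported here, and the other named genes were followed by sign alone. With the mean of probes Slc6a5 was -5.41 in place of -0.73 and Gad1 -5.59 in place of -7.24. Markers within 2-fold that crossed 0 were Ngfr (-1.65), Lypd2 (-1.07) and Hbb (0.10) against the dorsal hemisection, Slc6a5 (0.17), Lypd2 (-0.62), Acta1 (0.93) and Alas2 (0.07) with tissue means, and Ngfr (-0.07), Cldn5 (0.02) and Hbb (0.05) with the 75th percentile.

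With the scans as recorded, which set by rank the dorsal hemisection column against that of Schwann cells after 24 h, 3485 genes were higher and 1973 lower, and 75 of 194 named genes kept their sign. Medians at least 1 from 0 that turned were oligodendrocyte 6.84, astrocyte 5.31, ependyma 2.64, neuron 4.33, synaptic vesicle 2.93, GABA and glycine 3.62, glutamate 2.19, cholinergic 1.64, neuropeptide 3.72, collagen -0.74, central matrix 3.39, skeletal muscle 2.36, Hox 0.91, central factors 3.27, neural crest factors -1.05, channels 3.40 and immediate early -0.76. Of the smaller, microglia was 6.38, shared myelin 4.23, erythroid 6.05, cholesterol synthesis -0.60 and ribosomal protein -0.41. Markers at least 2-fold apart that turned were Pmp22 -2.08, Cdh19 -4.14, Mog 6.84, Mobp 5.85, Opalin 3.80, Olig1 7.15, Olig2 8.53, Ermn 6.94, Gfap 5.48, Aqp4 5.14, Aldh1l1 5.86, Slc1a2 8.42, Gjb6 8.42, Snap25 9.55, Syt1 2.95, Nefl 2.73, Slc17a6 5.39, Gad1 8.17, Chat 1.26, Foxj1 4.19, Rsph1 2.27, Tmem212 4.17, P2ry12 5.86, Tmem119 0.06, Col1a1 -3.28, Ucp1 4.01, Myh4 2.21, Ckm 4.58, S100a8 8.14 and S100a9 8.30. Of those within 2-fold, Ngfr was -4.65, Slc6a5 2.28, Cx3cr1 1.58, Cdh5 -0.48, Cldn5 8.58, Acta1 0.13, Hbb 15.30 and Alas2 7.72.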
